A study of Homo sapiens with 12 samples.

Results

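Long noncoding RNAs (lncRNAs) are transcripts that are not translated into protein, and some of them are switched on when the tumour suppressor p53 is activated. The 4 described here, PURPL, NRAV, MIR22HG and LINC00475, were chosen by name because earlier results on these arrays showed them higher after p53 activation in at least 1 cell line. Each was measured by 1 probe set, a group of array probes read as 1 value, so the rule found 4 probe sets for 4 genes, out of 14118 named genes of which 1359 are lncRNA genes. Because the response to treatment chose them, that response is given below as a description without a test, and tests are kept for the levels in untreated cells and for other genes.

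The arrays were Affymetrix Human Gene 2.0 ST, hybridised with total RNA of 3 human cell lines from colorectal cancers: HCT116, SW48 and RKO, all labelled wild type for p53. Cells of each line were left without drug or kept in Nutlin-3a at 10 µM during 8 h. That makes 6 groups of 2 arrays, 12 in all. Nutlin-3a is a small molecule that occupies the p53 pocket of MDM2, the ubiquitin ligase that keeps p53 low, and so lets p53 accumulate without DNA damage. All groups share the p53 wild-type background, and the 12 arrays hold no p53-deficient line. The labels speak of duplicates and name no cultures; the p-values therefore reflect only the spread between these arrays, which may be technical.

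p53 binds DNA as a tetramer. Its site is made of a pair of half-sites of 10 bases, close together or directly adjoining, near the genes it activates. Besides protein-coding targets of cell cycle arrest and apoptosis it induces noncoding RNAs. PURPL is a p53-induced RNA reported to bind MYBBP1A and to hold down basal p53 protein, which makes it part of a negative feedback. NRAV is named as a negative regulator of the antiviral response and has been reported to restrain interferon-stimulated genes. MIR22HG is the host transcript of the microRNA miR-22 and is known to rise under several kinds of cell stress. No function is stated here for LINC00475.

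The start-site windows of the lncRNAs are shown first because one of them holds a complete p53 site. They were taken from RefSeq (GRCh38.p14), which gave a window for 3 of the 4 genes, 250 bases before to 50 bases after the annotated start, written 5′ to 3′ on the gene's own strand. In the PURPL window (chr5:27472042-27472341, plus strand) capitals mark bases that match the p53 half-site consensus. In the NRAV (chr12:120495897-120496196, minus strand) and MIR22HG (chr17:1716161-1716460, minus strand) windows capitals mark the CCAAT box in either orientation, ATTGG being its other strand.
PURPL: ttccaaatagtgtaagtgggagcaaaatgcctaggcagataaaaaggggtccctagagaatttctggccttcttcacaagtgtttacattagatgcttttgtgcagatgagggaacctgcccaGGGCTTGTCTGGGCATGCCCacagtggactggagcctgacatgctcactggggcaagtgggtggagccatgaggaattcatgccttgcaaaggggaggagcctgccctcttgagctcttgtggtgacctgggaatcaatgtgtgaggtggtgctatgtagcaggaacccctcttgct
NRAV: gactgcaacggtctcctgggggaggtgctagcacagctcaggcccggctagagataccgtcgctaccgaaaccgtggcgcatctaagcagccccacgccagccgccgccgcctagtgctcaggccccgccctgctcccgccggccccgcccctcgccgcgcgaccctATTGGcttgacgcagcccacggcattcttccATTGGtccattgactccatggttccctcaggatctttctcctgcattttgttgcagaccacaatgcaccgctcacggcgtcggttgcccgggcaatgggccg
MIR22HG: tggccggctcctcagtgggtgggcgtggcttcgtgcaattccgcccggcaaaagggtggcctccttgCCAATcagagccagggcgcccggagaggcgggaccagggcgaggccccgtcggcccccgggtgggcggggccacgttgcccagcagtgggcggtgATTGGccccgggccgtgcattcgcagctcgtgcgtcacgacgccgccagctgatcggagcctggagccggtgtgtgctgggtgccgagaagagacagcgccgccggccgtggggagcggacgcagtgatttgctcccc

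The PURPL window holds 2 p53 half-sites that adjoin with 0 bases between them, which makes an unbroken 20-base site, GGGCTTGTCTGGGCATGCCC, from position -127 to -108 relative to the start. The consensus reads the same on both strands, so 1 scan covers both. Of 35114 RefSeq start-site windows of 300 bases, 2328 (6.63%) held any half-site and 10 (0.0285%) held a pair separated by 0 to 13 bases. The adjoining 20-base form without a mismatch was in 6 (0.0171%). Among 63 other genes with a window that were called higher with Nutlin-3a in all 3 lines, 0 held such a pair. Any half-site was present in 7 (11.1%) of them, so most genes that rose lacked a strict match in this window. The NRAV and MIR22HG windows held 0 half-sites, and their closest 20-base stretches differed from the consensus at 5 and 7 positions; 70.5% of all windows had a match at least as good as NRAV's. No half-site in a window of this length says nothing of sites elsewhere in the gene.

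The windows differ in composition as well. PURPL has 0 CpG dinucleotides and 52% G and C, whereas NRAV has 27 CpG and 65.7%, and MIR22HG has 32 CpG and 72.3%. Among all windows, 3.96% had 0 CpG, 73.8% had at most 27 and 82.8% had at most 32. NRAV and MIR22HG each hold 2 CCAAT boxes, a motif present in 34.6% of all windows, and PURPL holds 0. GGGCGG or its other strand CCGCCC, the GC box found in 45% of windows, occurs 2 times for NRAV, 3 times for MIR22HG and 0 times for PURPL. The NRAV window overlaps an opposite-strand start window of DYNLL1, a dynein light chain gene. The MIR22HG window overlaps that of WDR81, while the PURPL window overlaps none. Such overlaps occur for 16.3% of all windows and for 23.7% of those of measured lncRNA genes.

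The 10 windows with a pair of half-sites belonged to 10 genes, among them DDB2, a DNA damage recognition gene, and LNCTAM34A, the antisense transcript of the MIR34A locus, neither analysed here. Besides PURPL, the measured ones were PTCHD4, which encodes a patched-domain protein and also carries the adjoining form, and MCC, which has a gap between its half-sites. These genes were singled out by the motif search and not by the naming rule. PTCHD4 lay at 5.08 and 4.91 untreated and 5.65 and 5.81 with Nutlin-3a in HCT116, and at 4.58 and 4.74 against 5.27 and 5.60 in SW48. It rose in HCT116 (log2 fold change 0.73 ± 0.13 (SE), adjusted p = 0.00977) and in SW48 (0.78 ± 0.13, adjusted p = 0.00907), and stood at 0.42 ± 0.13 in RKO without passing (adjusted p = 0.124). The HCT116 call was lost when the second untreated or the second treated HCT116 array was left out (adjusted p up to 0.0813). The SW48 call was lost without SW48 untreated replicate 1, without the second treated array (up to 0.0863) and with only the SW48 arrays fitted (0.0697). MCC did not pass in any line (0.26, 0.27 and -0.088 in HCT116, SW48 and RKO).

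PURPL had the widest range of the 4 lncRNAs over the 12 arrays, 3.95 on the log2 scale of the deposited signal. In HCT116 it lay at 5.63 and 5.62 untreated and at 7.31 and 7.02 with Nutlin-3a. In SW48 it lay at 5.05 and 4.95 untreated and at 6.12 and 6.55 with Nutlin-3a. In RKO the untreated arrays gave 7.06 and 7.01 and the Nutlin-3a arrays 8.90 and 8.74. Treated and untreated arrays did not overlap in any line. The Nutlin-3a level was 2.90-fold the untreated one in HCT116 (log2 difference 1.53 ± 0.14 (SE), n = 2 arrays per group), 2.52-fold in SW48 (1.33 ± 0.14) and 3.46-fold in RKO (1.79 ± 0.14). The order of the 6 group means ran from untreated SW48 (5.00 ± 0.071 (SD)) over untreated HCT116 (5.63 ± 0.0071), treated SW48 (6.33 ± 0.31), untreated RKO (7.03 ± 0.036) and treated HCT116 (7.16 ± 0.20) to treated RKO (8.82 ± 0.12). Only untreated RKO and treated HCT116 overlapped among neighbours in that order. Whether these 2 groups differ was not tested.

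NRAV spanned 0.664 on the log2 scale over the 12 arrays. In HCT116 it lay at 8.75 and 8.72 untreated and at 9.25 and 9.13 with Nutlin-3a. In SW48 it lay at 8.63 and 8.59 against 8.99 and 9.0, and in RKO at 8.79 and 8.87 against 9.17 and 9.10. All 6 treated arrays were above all 6 untreated ones, whichever the line. The Nutlin-3a level was 1.37-fold the untreated one in HCT116 (log2 difference 0.45 ± 0.064), 1.31-fold in SW48 (0.38 ± 0.064) and 1.24-fold in RKO (0.31 ± 0.064).

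MIR22HG differed far more between HCT116 and the other lines than with treatment. Untreated RKO and SW48 differed by only 0.28 ± 0.089, less than any line did with treatment. In HCT116 it lay at 5.18 and 5.40 untreated and at 5.91 and 5.90 with Nutlin-3a. In SW48 the values were 6.95 and 6.89 against 7.35 and 7.20, and in RKO 7.11 and 7.29 against 7.56 and 7.59. Treated and untreated arrays did not overlap in any line, and treated HCT116 stayed below untreated SW48 and RKO. The log2 difference was 0.62 ± 0.089 in HCT116, a 1.54-fold level, 0.36 ± 0.089 in SW48 (1.28-fold) and 0.37 ± 0.089 in RKO (1.30-fold).

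LINC00475 was dim on every array, below the median of all deposited values (5.01). In HCT116 it lay at 4.21 and 4.30 untreated and at 4.29 and 4.33 with Nutlin-3a, and the groups overlapped. In SW48 it lay at 4.43 and 4.24 untreated and at 4.68 and 4.73 with Nutlin-3a, without overlap. In RKO it lay at 4.21 and 4.18 against 4.41 and 4.30, also without overlap. The log2 difference was 0.054 ± 0.075 in HCT116, 0.37 ± 0.075 in SW48 and 0.16 ± 0.075 in RKO, so its highest group was treated SW48, whose arrays lay above the other 10.

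**Figure D1:**
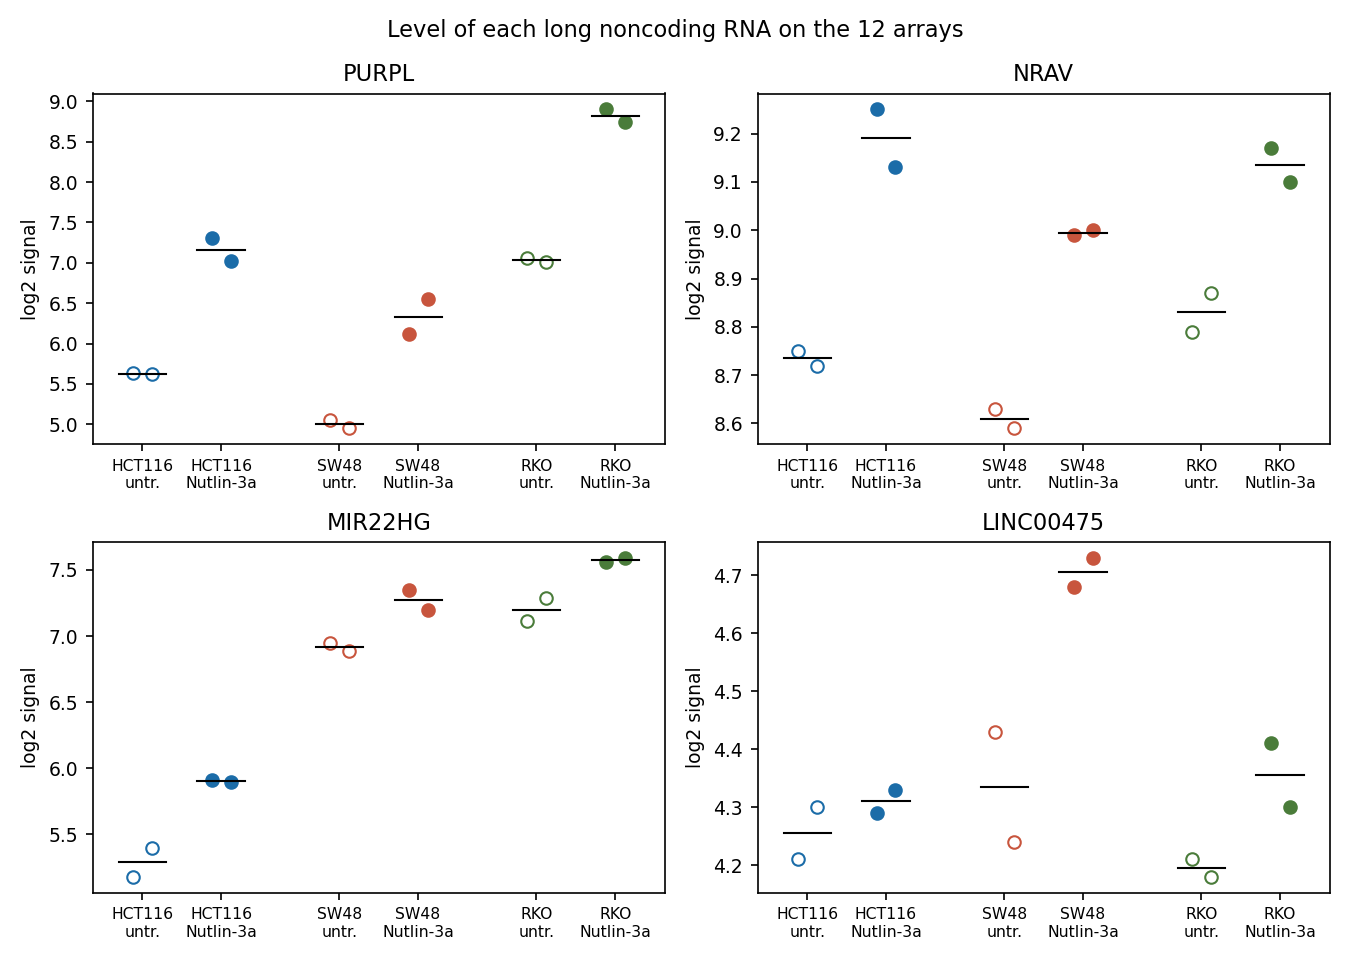
Log2 signal of PURPL, NRAV, MIR22HG and LINC00475 (1 panel each, with its own vertical scale) on the 12 arrays, by line and treatment. Each point is 1 array, open for untreated and filled for Nutlin-3a, and the bar is the mean of 2; filled points lie above the open points of the same line everywhere except for LINC00475 in HCT116.

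Read against the whole table, Nutlin-3a and untreated arrays gave a limma adjusted p under 0.05 for 5.11% of all genes in HCT116, 3.12% in SW48 and 2.02% in RKO, and for 2.06%, 1.25% and 0.589% of lncRNA genes. Of the 4 lncRNAs, 3 were under that threshold in HCT116 (all but LINC00475) and 3 in SW48 (all but MIR22HG). In RKO there were 2 (PURPL and NRAV). Since they were chosen for this response, the counts only place them in the table and support nothing. The same holds for the record, given next, of how their calls fared in the alternatives, which is a description and no test. PURPL and NRAV were the 2 of 1359 lncRNA genes past the threshold, and higher, in all 3 lines, against 0.545% of all genes. For NRAV this rests on RKO, where it was past the threshold in 0 of 12 fits that left out 1 array and not with arrays centred on their median, with all probe sets tested, with the replicate block or with only the RKO arrays. In SW48 NRAV missed the threshold without any 1 of the 4 SW48 arrays, with the block and with only the SW48 arrays, and in HCT116 with only the HCT116 arrays. LINC00475 in SW48 was past it in 9 of the 12 omissions and 3 of 7 other alternatives, missing it without untreated replicate 2 or either treated SW48 array. MIR22HG, short of it in SW48 and RKO, passed in both with dim genes left out, and in RKO with the variance trend over intensity and robust prior. PURPL was past it in all 3 lines in every alternative run. Complete separation is a weak criterion with 2 arrays a group: 23.9% of all genes had both treated arrays above both untreated ones in HCT116, 19.3% in SW48 and 20.6% in RKO, and 3.23% had it in all 3 lines, as did 1.40% of lncRNA genes.

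Ranked by the mean log2 difference over the 3 lines among the 1359 lncRNA genes, PURPL came first at 1.55 ± 0.079, followed by UNC5B-AS1 at 0.78. MIR22HG was in place 6 (0.45 ± 0.052), between LINC00294 (0.46) and RNF157-AS1 (0.41), and NRAV in place 8 (0.38 ± 0.037), between RNF157-AS1 and STX17-DT (0.38). LINC00475 was in place 33 (0.19 ± 0.044), between LINC00853 and LINC01012, both at 0.19. The lncRNA genes as a class had a median difference of 0.0031 over the 3 lines against -0.0081 for all genes. The top hundredth of the lncRNA genes by mean difference began at 0.32, which PURPL, MIR22HG and NRAV exceeded and LINC00475 did not; the ranks rest on the response that chose the genes.

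**Figure D2:**
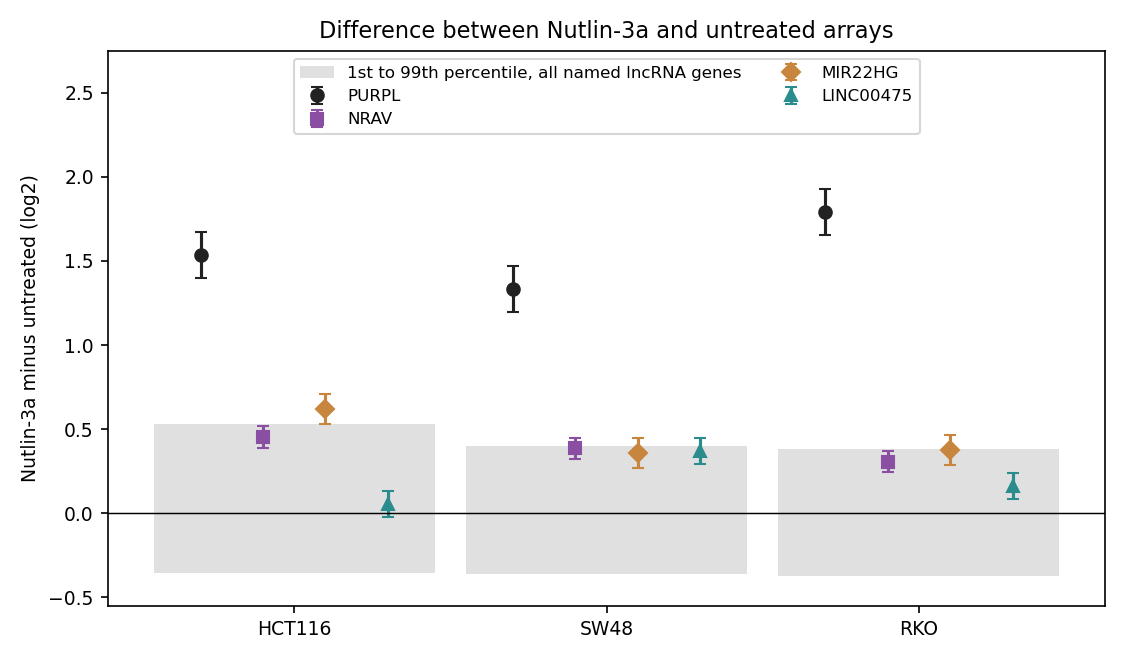
Log2 difference between Nutlin-3a and untreated arrays for the 4 lncRNAs in HCT116, SW48 and RKO; error bars are the standard error from the fit to all 12 arrays (n = 2 per group), and the grey band spans all but the most extreme hundredths at either end of the 1359 lncRNA genes. PURPL lies between 1.33 and 1.79, far above the band, and MIR22HG lies above it in HCT116 (0.62).

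The differences between untreated lines were not used to choose the lncRNAs. The untreated levels themselves entered that choice, since the same arrays serve as controls of the response. The largest differences between untreated lines were 4.08-fold for PURPL and 3.76-fold for MIR22HG, with the lines in different orders. NRAV and LINC00475 differed little. At an adjusted p under 0.05, 44.9% of all genes differed between untreated SW48 and HCT116, 41.5% between RKO and HCT116 and 44.7% between RKO and SW48 (26.4%, 24.3% and 28.1% of lncRNA genes), against 2, 2 and 3 of these 4.

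PURPL was highest in untreated RKO, 4.08-fold above SW48 (log2 difference 2.03 ± 0.14, adjusted p = 9.80e-07) and 2.64-fold above HCT116 (1.40 ± 0.14, adjusted p = 1.79e-05). It was lower in SW48 than in HCT116 by 1.54-fold (log2 difference -0.63 ± 0.14, adjusted p = 0.00355). These 3 differences kept their direction and stayed under the threshold in every alternative run, with the highest adjusted p of 0.0282 among them.

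MIR22HG was lowest in untreated HCT116. SW48 was 3.10-fold higher (1.63 ± 0.089, adjusted p = 2.18e-07) and RKO 3.76-fold higher (1.91 ± 0.089, adjusted p = 7.98e-08), also in every alternative. RKO stood above SW48 by 0.28 ± 0.089 (adjusted p = 0.0270), a call that was lost without either untreated SW48 array or without RKO untreated replicate 2 (adjusted p up to 0.182).

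NRAV was 1.17-fold higher in untreated RKO than in SW48 (0.22 ± 0.064, adjusted p = 0.0169). That call was lost with quantile normalization (0.18, adjusted p = 0.0597), with only the 4 arrays compared (adjusted p = 0.0608), and without SW48 untreated replicate 2 or RKO untreated replicate 2 (up to 0.106). It did not pass between SW48 and HCT116 (-0.13 ± 0.064, adjusted p = 0.131) or RKO and HCT116 (0.090 ± 0.064, adjusted p = 0.306). LINC00475 passed in none of the 3 comparisons, with differences of 0.079, -0.062 and -0.14 ± 0.075 (adjusted p = 0.445, 0.571 and 0.164).

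**Figure D3:**
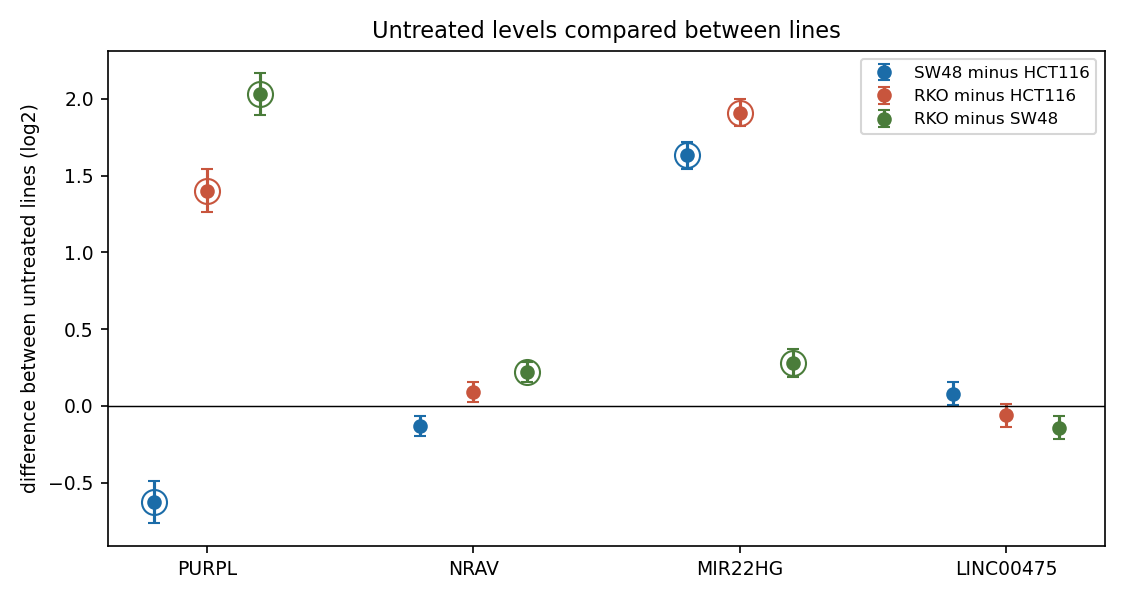
Log2 differences between untreated lines for each lncRNA, with standard errors (n = 2 arrays per line); rings mark an adjusted p under 0.05. PURPL runs from -0.63 to 2.03 and MIR22HG from 0.28 to 1.91, while NRAV and LINC00475 stay within 0.22 of 0.

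Genes that neighbour the lncRNAs on the chromosome were examined to see whether a whole region moved. Of the 24 nearest annotated genes (3 on each side of each lncRNA), 6 had a named probe set: 4 around MIR22HG, 1 near NRAV, 1 near LINC00475 and 0 near PURPL. None of the 6 passed the limma test for Nutlin-3a in any line, and 0 had an unadjusted p under 0.05. Of all genes, 5.11% passed in HCT116, 3.12% in SW48 and 2.02% in RKO, so 0 of 6 is near that share. So few genes cannot show whether a region moved, least of all near PURPL, where 0 were measured. WDR81, which starts next to MIR22HG and is read from the opposite strand, stood at 0.19 ± 0.089 in HCT116 (adjusted p = 0.285), 0.0072 in SW48 and 0.15 in RKO. TLCD2, the neighbour on the other side, stood at 0.086, -0.25 and 0.19 ± 0.16, and the splicing factor gene PRPF8 and the lysosomal transport gene RILP lay between -0.12 and 0.15 in the 3 lines.

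The difference of MIR22HG between untreated lines was shared in part by 2 of these neighbours. RILP was higher than in HCT116 by 0.83 ± 0.092 in SW48 (adjusted p = 3.77e-05) and by 1.12 ± 0.092 in RKO (adjusted p = 5.26e-06). TLCD2 was higher by 0.50 ± 0.16 in SW48 (adjusted p = 0.0238) and by 0.61 ± 0.16 in RKO (adjusted p = 0.00979). Both TLCD2 calls were lost without HCT116 untreated replicate 1 (adjusted p up to 0.159), the first also without SW48 untreated replicate 1 and the second without RKO untreated replicate 2. WDR81 was higher in SW48 than in HCT116 (0.45 ± 0.089, adjusted p = 0.00188) and not in RKO (0.090, adjusted p = 0.480), and PRPF8 was lower in SW48 than in HCT116 (-0.24 ± 0.074, adjusted p = 0.0208; lost without either untreated HCT116 array or SW48 untreated replicate 2, up to 0.163, with quantile normalization and with only the arrays compared). Near NRAV, RNF10 was higher in SW48 than in HCT116 (0.36 ± 0.062, adjusted p = 0.000806) and lower in RKO than in SW48 (-0.39 ± 0.062, adjusted p = 0.000467). Near LINC00475, LOC100128076 was likewise higher in SW48 than in HCT116 (0.99 ± 0.16, adjusted p = 0.000595) and lower in RKO than in SW48 (-0.81 ± 0.16, adjusted p = 0.00236). Of the 6 measured neighbours, 6 were called between SW48 and HCT116 (5 higher, 1 lower), 2 between RKO and HCT116 (both higher) and 5 between RKO and SW48 (2 higher, 3 lower), beside 44.9%, 41.5% and 44.7% of all genes. In the last comparison the calls of RILP, WDR81 and PRPF8 were each lost without at least 1 array: SW48 untreated replicate 1 for WDR81 (adjusted p = 0.0642), SW48 untreated replicate 2 for PRPF8 (0.0732), and either untreated SW48 array or RKO untreated replicate 1 for RILP (up to 0.170).

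**Figure D4:**
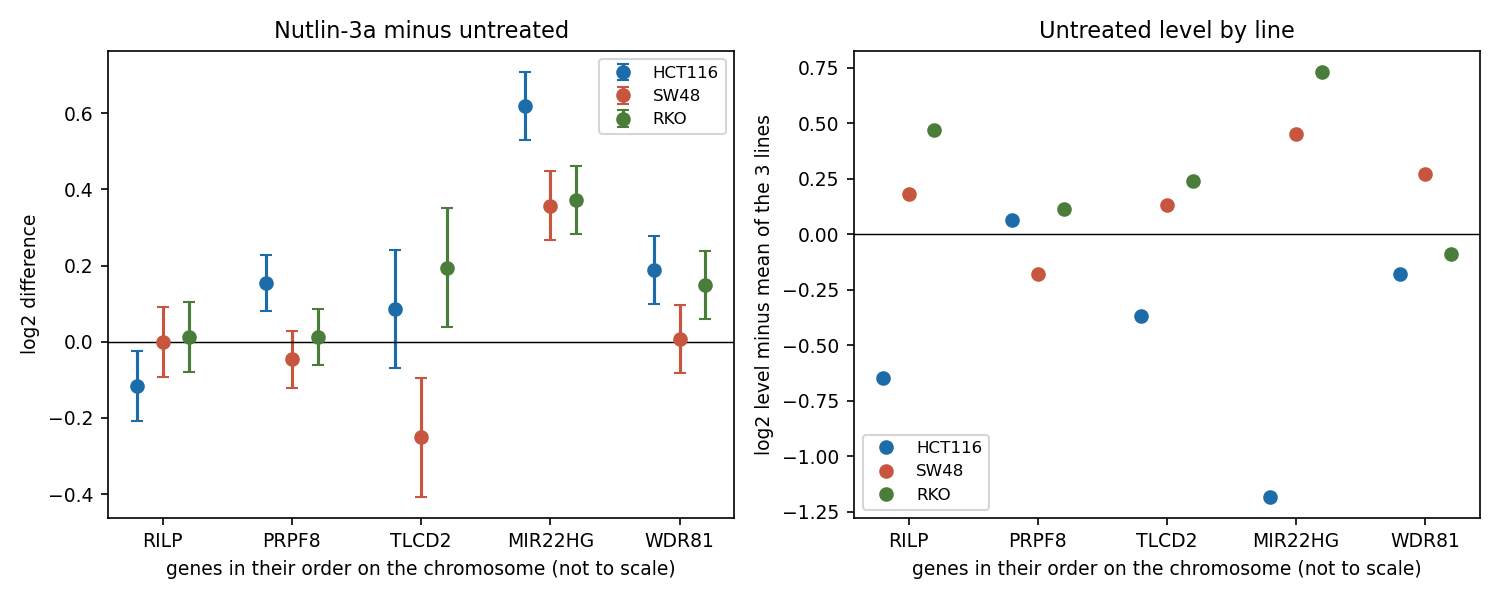
MIR22HG and its 4 measured neighbours in chromosome order. On the left, the log2 difference between Nutlin-3a and untreated arrays by line with standard errors; on the right, the untreated log2 level of each line less the mean of the 3 lines for that gene. MIR22HG differs with Nutlin-3a by 0.36 to 0.62, and RILP, TLCD2, MIR22HG and WDR81 are each lowest in HCT116, while PRPF8 is lowest in SW48.

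DYNLL1, which overlaps NRAV on the opposite strand, is not analysed here, and the ubiquitin ligase gene RNF10 was the measured neighbour, at 0.029, -0.025 and 0.036 ± 0.062. Beyond these neighbours lies TRIAP1, a p53 target that inhibits the apoptosome; it falls outside the naming rule and was added after its values were seen. It rose by 0.98 ± 0.083 in HCT116 (adjusted p = 0.000149), 1.23 ± 0.083 in SW48 (adjusted p = 4.49e-05) and 0.97 ± 0.083 in RKO (adjusted p = 0.000280). Beside LINC00475, the pseudogene LOC100128076 stood at -0.053, 0.24 and -0.087 ± 0.16.

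The genes whose signal ran most like that of each lncRNA were sought among genes whose 6 group means span at least 0.5. Pearson's r over the 12 arrays is given as a description, because arrays of a line share that line's level and treated arrays share the response. For PURPL the closest were the Wnt receptor gene FZD6 (r = 0.981), GXYLT1 (0.979), the AP-1 gene FOSL1 (0.961), DUSP14 (0.958) and the p53-induced exonuclease gene AEN (0.954). With each line's mean subtracted, which leaves the response, the closest were the probe set of MIR3189, a microRNA gene inside GDF15 (0.993), the glycolysis regulator TIGAR (0.989), ZNF79 (0.988), the repressor E2F7 (0.986) and the pro-apoptotic BBC3 (0.985).

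NRAV was most like TRAF4 (0.969), the ribonucleotide reductase gene RRM2B (0.958) and MIR3189 (0.957), followed by SDC1 (0.955) and SESN2 (0.954). With line means subtracted the order was ZNF219 and NADSYN1 (both 0.987), TRAF4 (0.986), HSPA4L (0.985) and STAT3 (0.982). MIR22HG was most like RALGDS (0.989), DEF6 (0.987), SCPEP1 (0.983), MORC4 and ARRDC4 (both 0.981), of which ARRDC4 differed by 0.87 with Nutlin-3a in HCT116 and by -0.067 in RKO. With line means subtracted they were COQ10B (0.978), CCDC90B (0.977), INPP1 (0.975), ZNF440 (0.969) and SUSD6 (0.966). LINC00475 had its nearest likeness in MIR34A (0.910), which was also highest in treated SW48, then NLGN3 (0.903), LINC00853 (0.901), PODXL (0.895) and UNC5B-AS1 (0.887). With line means subtracted these were LINC00853 (0.919), SRGAP3 (0.916), PRKD2 (0.896), DKK1 (0.891) and ETV7 (0.885).

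The surrounding p53 response was described from lists. They were chosen with earlier results of these data known, so their counts are a description and no independent evidence. Of 23 measured core p53 target genes out of 36 listed, 22 rose in HCT116, 21 in SW48 and 20 in RKO and 0 fell, with median log2 fold changes of 1.18, 1.08 and 0.96 against -0.011, -0.013 and -0.0068 for all genes. Of all genes, 3.08%, 1.38% and 1.23% rose. The RKO count was 13 when RKO was fitted alone. The sestrin gene SESN1, which restrains mTORC1 under stress, rose by 1.88 ± 0.070 in HCT116, 1.69 ± 0.070 in SW48 and 1.44 ± 0.070 in RKO. The PURPL difference exceeded the median of this list in each line, and those of NRAV, MIR22HG and LINC00475 were below it.

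Other noncoding RNAs linked to p53 were counted as a list. Of 10 measured out of 28 listed, 0 passed in HCT116 (limma, 0 at an unadjusted p under 0.05), 1 rose in SW48 and 0 passed in RKO (3 unadjusted), with medians of 0.075, 0.10 and 0.056. The one in SW48 was MIR34A, a microRNA gene activated by p53 (1.45 ± 0.079, adjusted p = 1.97e-05), at 0.14 in HCT116 and 0.19 in RKO. LINC-PINT, a p53-regulated lncRNA, stood at 0.22 ± 0.12 in HCT116 and 0.19 ± 0.12 in RKO without passing. The largest change of the list in RKO was downward, GAS5 at -0.25 ± 0.094, and MALAT1 stood at 0.37 ± 0.13 in SW48. Neither passed.

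Genes connected with each lncRNA in the literature were counted too. Of 6 measured partners of p53 or PURPL, 0 passed the limma test in any line (1, 0 and 2 at an unadjusted p under 0.05 in HCT116, SW48 and RKO). MYBBP1A, the nucleolar protein reported to bind PURPL, stood at -0.15 ± 0.067 in RKO (adjusted p = 0.293), and MDM4, a p53 inhibitor, at 0.30 ± 0.081 in HCT116 (adjusted p = 0.0708). With dim genes left out, or with a variance trend over intensity and a robust prior, 1 of the 6 was called higher in HCT116; the latter also called 1 lower in RKO.

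Of 13 measured interferon-stimulated genes, the class NRAV is reported to restrain, 2 rose in HCT116, 0 passed in SW48 (limma, 3 at an unadjusted p under 0.05) and 1 rose in RKO, with medians of -0.0053, 0.025 and 0.084. The risen genes encode sensors of viral RNA. TLR3 rose by 1.36 ± 0.068 in HCT116 (adjusted p = 6.37e-06) and by 0.45 ± 0.068 in RKO (adjusted p = 0.0109; lost without the second untreated or second treated RKO array, up to 0.0833, and at 0.162 with only the RKO arrays fitted). IFIH1 rose by 0.35 ± 0.086 in HCT116 (adjusted p = 0.0479) and lost the call for 9 of the 12 possible omissions of 1 array (up to 0.281). The antiviral effectors IFIT1 (-0.35 ± 0.11 in HCT116, adjusted p = 0.113; -0.27 in SW48) and IFITM1 (-0.32 ± 0.081 in RKO, adjusted p = 0.0774) did not pass.

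MIR22HG yields miR-22, whose mature sequences are shown because the arrays read the host and not the small RNA. Capitals mark the seed, bases 2 to 8, which directs target choice, and no other mature microRNA among 2370 in the RefSeq table has either seed. The first lies at chr17:1713914-1713935 and the second at chr17:1713952-1713973, minus strand, GRCh38.p14.
hsa-miR-22-3p: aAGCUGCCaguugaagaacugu
hsa-miR-22-5p: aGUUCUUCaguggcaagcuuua

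Of 15 measured genes reported as miR-22 targets, 1 rose in HCT116. In SW48 and in RKO 0 passed (limma, 2 at an unadjusted p under 0.05 in each). The medians in HCT116, SW48 and RKO were -0.092, -0.053 and -0.072, against -0.011, -0.013 and -0.0068 for all genes. That difference was not tested. The one that rose was TET2, a DNA demethylase gene (0.31 ± 0.057, adjusted p = 0.0139), a call lost without HCT116 untreated replicate 1 or either HCT116 Nutlin-3a array (up to 0.121), and with only the HCT116 arrays fitted (0.102). SIRT1 stood at -0.20 ± 0.060 in HCT116 (adjusted p = 0.0970) and ERBB3 at -0.23 ± 0.066 in SW48 (adjusted p = 0.0978). The variance trend with a robust prior called 2 genes in HCT116, 1 of them lower, and 2 in SW48, both lower.

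Marker genes of the labelled cell type were looked at as well. All 6 measured colonic epithelial markers exceeded the median of all values in at least 1 group, as did 10685 of all 14118 named genes. Counts of this kind therefore cannot check the cell type. KRT20 was at 4.17 in untreated RKO and 4.41 in untreated SW48, below that median. EPCAM was at 6.03 in untreated RKO against 11.02 and 11.12 in untreated HCT116 and SW48. The extraction text of the labels speaks of thyroid tissue. The 5 measured thyroid markers lay between 4.49 and 6.24, 4 of them above that median in at least 1 group, with the thyroglobulin gene TG between 5.08 and 5.27 in all groups. None of the measured epithelial and thyroid markers passed for Nutlin-3a in any line (limma, 0 at an unadjusted p under 0.05). Of the other markers, 2 of 4 immune, 1 of 3 fibroblast and 0 of 2 endothelial genes exceeded that median in any group; the fibroblast gene THY1 fell in HCT116 by 0.32 on the log2 scale (adjusted p = 0.0289), and its part in the results was not tested. In bulk RNA, fewer cells making a transcript and less of it per cell cannot be told apart.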

How the data were processed

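The deposited values are log2 expression values made by the authors, 1 per probe set and array for 37270 probe sets; per the submitters' processing notes GCOS was used, and for background correction, summarization and normalization the method is not given in the sources used here. Base 2 was read from the range (2.22 to 13.45). Column medians lay between 4.97 and 5.05, which does not show that the distributions match. Platform annotation gave 1 symbol to 14530 probe sets, several to 0, and left 22740 unnamed and unused; all 14530 gene numbers were found in RefSeq GRCh38.p14. The brightest probe set stood for each of 395 genes with several. All 12 arrays entered 1 limma 3.58.1 fit (R 4.3.3) with 1 mean per group and variances moderated by empirical Bayes (residual degrees of freedom 6, prior 3.71) and Benjamini-Hochberg adjustment over 14118 genes, tested on simulated data. Differences are ± the standard error, levels ± SD, n = 2 arrays; this number limits the precision. The lncRNAs and the gene lists were chosen with earlier results of these data known. Genes named besides the 4 were the measured ones among the 3 nearest on each side, the 5 most alike by each of 2 measures, up to 3 per list and line with the largest change, and the rank neighbours; exceptions are stated. Alternatives covered normalization, dim genes, probe sets, the variance model, samples in the fit, single arrays and the replicate block. No batch information was used.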

Additional observations from a re-analysis of the deposited data

How the results depend on the processing

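The 4 lncRNAs kept the sign of every Nutlin-3a response in all alternatives, LINC00475 having no value with dim genes left out. Leaving out 1 array at a time gave responses of 1.11 to 1.55 for PURPL in SW48, 0.39 to 0.51 for NRAV in HCT116, 0.51 to 0.73 for MIR22HG in HCT116 and 0.28 to 0.46 for LINC00475 in SW48, and quantile normalization gave 0.36 for NRAV in RKO. Between untreated lines, NRAV in RKO minus SW48 was 0.18 with quantile normalization and 0.22 with only the arrays compared, both no longer called, and 0.18 to 0.26 over single omissions. MIR22HG in RKO minus SW48 ran from 0.19 to 0.37. LINC00475 ran from -0.011 to 0.17 in SW48 minus HCT116, turning without SW48 untreated replicate 1, and from -0.23 to -0.051 in RKO minus SW48, called without SW48 untreated replicate 2 (adjusted p = 0.0495). Line means over both conditions, which include the treated arrays, called NRAV (-0.16) and LINC00475 (0.24) in SW48 minus HCT116 and LINC00475 (-0.24) in RKO minus SW48. Over all genes, 721, 441 and 285 were called for Nutlin-3a in HCT116, SW48 and RKO. The variance trend with a robust prior called 1228, 870 and 760, only the arrays compared 208, 115 and 31, and single omissions 260 to 692, 188 to 394 and 97 to 226; with dim genes left out RKO had 436. Testing all probe sets called 10196, 9312 and 10429 between untreated lines (SW48 minus HCT116, RKO minus HCT116, RKO minus SW48) against 6334, 5852 and 6311 among more features. The replicate block called 357, 218 and 87 genes for Nutlin-3a and changed no call of the lncRNAs between untreated lines; same-numbered arrays did not deviate together (r = 0.0546, -0.0388 and -0.0547), so the numbers were not taken to pair them. Under the block TLR3 in RKO (adjusted p = 0.0843), TET2 (0.0672) and IFIH1 (0.0622) in HCT116 were not called. The cause of these changes was not tested. The dimness of LINC00475 limits what can be said of it.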
